A study of Mus musculus with 5 samples.

Results

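MicroRNAs that mark blood cell lineages were followed in activated mouse helper T cells with 4 probes, 1org-142-s, 1org-142-as and 2org-142* for miR-142 and 2org-223 for miR-223, of the 178 probes in the deposited table. They were chosen by probe ID as microRNAs known from blood cells. The samples were CD4-positive, CD25-negative T cells activated overnight (1 array), for 3 days (2 arrays) or for 10 days (2 arrays), and on each array their total RNA was set against that of CD4-positive, CD25-negative T cells without activation, called naive here after the series title. On each array one RNA was labelled with Cy5 and the other with Cy3, and the 2 arrays of day 3 and of day 10 had opposite dyes. The sources used here do not give the strain, the stimulus, the culture or the number of animals, nor whether the 2 arrays of a time held separate RNA extracts.

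MicroRNAs are cut from a hairpin transcript, and either arm of the hairpin can yield a mature strand that pairs with target messenger RNAs through its seed, bases 2 to 8. The miR-142 hairpin is transcribed across blood cell lineages, T cells included, and gives both a 5p and a 3p strand. miR-223 is known as a myeloid microRNA, abundant in granulocytes and their precursors. In early nomenclature the endings s and as named the 5p and the 3p strand of miR-142. Which strand the probe 2org-142* was made for is not stated in the labels or tables used here.

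The mature strands of both hairpins are printed because the comparison turns on whether probes of 1 hairpin move together and apart from the other hairpin. The sequences are those of RefSeq for mouse (GRCm38.p6), 5′ to 3′, with the seed in capitals:
mmu-miR-142a-5p: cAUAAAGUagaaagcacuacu
mmu-miR-142a-3p: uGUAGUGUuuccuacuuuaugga
mmu-miR-223-5p: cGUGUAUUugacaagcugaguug
mmu-miR-223-3p: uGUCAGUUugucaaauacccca

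The 4 seeds differ from each other, and none of them was the seed of another gene's mature strand among the 1738 mature sequences of that table. The arms of miR-142 lie in 1 short hairpin, shown here with both mature strands in capitals:
Mir142 hairpin: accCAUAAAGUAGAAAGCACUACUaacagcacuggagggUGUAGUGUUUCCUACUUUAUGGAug
This hairpin is at chr11:87756864-87756927 on the plus strand, and the miR-223 hairpin is at chrX:96242817-96242926 on the plus strand, within the span of the long noncoding RNA gene F630028O10Rik. In an ungapped alignment 18 of 21 aligned positions of the miR-142 arms were complementary. The annotation also lists a microRNA gene on the opposite strand, Mir142b, whose mature sequence lies within the reverse complement of the 3p strand. The sequences of the array's own probes were not used here.

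Values are log2 ratios of activated over naive, so that a negative value means a lower level in activated cells. The base 2 is a reading of the deposited log ratios, whose base the sources used here do not give. Cy5 over Cy3 was taken as the deposited direction, and the arrays with activated RNA in Cy3 were multiplied by -1. This direction is likely rather than stated, on the basis that it gives activated minus normal, the order of the array titles, wherever the activated RNA was in channel 2, and if Cy3 was the numerator every direction below is turned. Across the 171 microRNA probes, which are not independent replicates, the deposited values of the day 3 pair had a correlation of -0.66 and those of the day 10 pair one of -0.43, and turning made these 0.66 and 0.43. Arrays of the same dye orientation correlated between 0.27 and 0.47. Turned arrays of opposite dye orientation at different times correlated between -0.15 and 0.18. The overnight array was at -0.09 with the Cy3 array of day 3 and at -0.15 with that of day 10, named by the dye of the activated RNA. The cause of this was not tested. The turned values had medians of -1.75 on the overnight array, of 0.20 and 1.42 on the day 3 arrays and of -0.51 and -0.38 on the day 10 arrays, and each value is also given after centring its array on that median. The scanner signals were not analysed here, so it is unknown which probes were above background, no level can be given, and the T cell label could not be checked against marker genes. The number of arrays limits the precision.

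All 3 miR-142 probes were below 0 on all 5 arrays, giving 15 values between -3.17 and -0.77, and all 15 were also below 0 after centring. Of the 171 microRNA probes, 10.5% were below 0 on all 5 arrays as deposited and 5.26% after centring. The miR-223 probe was below 0 on 4 arrays as deposited and on 5 after centring. In bulk RNA of this kind, fewer cells that hold a microRNA and less of it per cell cannot be told apart.

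**Figure D1:**
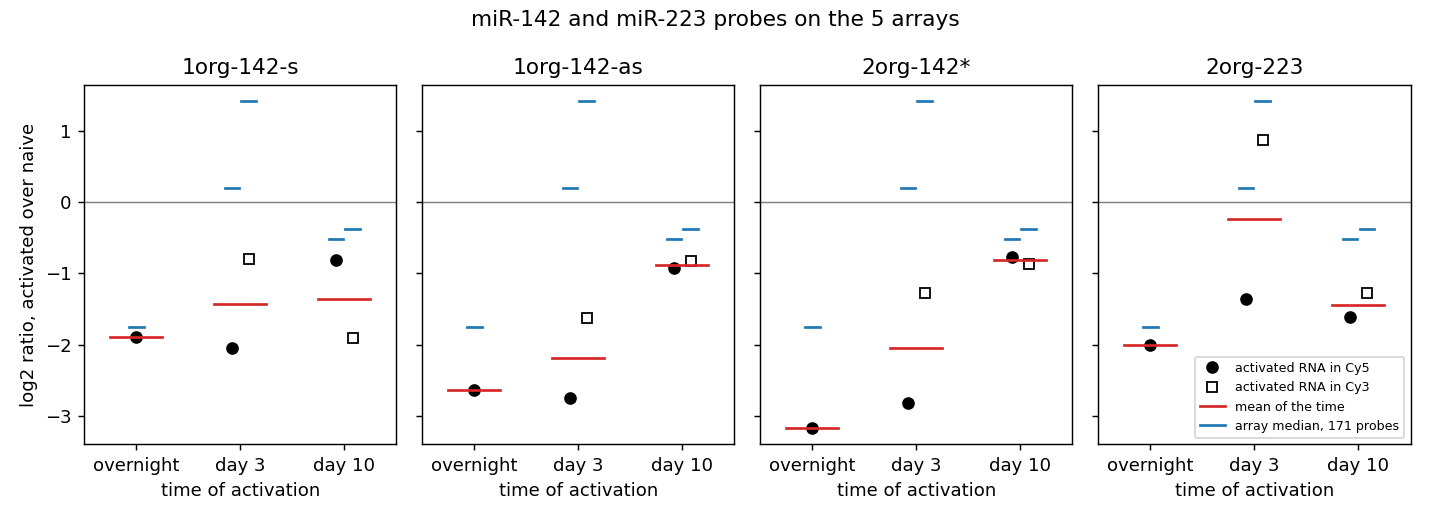
Log2 ratio of activated over naive (vertical axis) of the 4 probes at each time of activation (horizontal axis). Points are arrays by the dye of the activated RNA, red bars the mean of a time and blue bars the median of the 171 microRNA probes on that array. The miR-142 probes lie below 0 and below the array median throughout, and 2org-223 at day 3 has 1 array on either side of 0.

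Probe 1org-142-as, by its ending the 3p strand, was at -2.65 overnight, at -2.75 and -1.63 at day 3, and at -0.93 and -0.83 at day 10, where the first value of each pair is the array with activated RNA in Cy5. The overnight and day 3 values were lower than both day 10 values. The day 3 mean of -2.19 corresponds to 0.219 times the naive level, and the day 10 mean of -0.88 to 0.544 times. After centring, it stood at -0.90 overnight, at -2.95 and -3.05 for day 3, and at -0.42 and -0.45 for day 10. Centring brought the 2 day 3 arrays closer together. It made day 3 the lowest time by its mean, where overnight had been the lowest as deposited. The overnight value came nearer to day 10. Counted from the lowest of the 171 probes, which does not depend on centring, this probe ranked 12 overnight, 12 and 20 on the day 3 arrays, and 56 and 46 on the day 10 arrays.

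Probe 2org-142* gave nearly the same series. It was at -3.17 overnight, at -2.82 and -1.28 at day 3, and at -0.77 and -0.86 at day 10. Its rank from the lowest was 2 overnight, with 10 and 24 on the day 3 arrays and 65 and 42 on the day 10 arrays. It also moved from the lower end of the probes toward the middle. After centring it was at -1.43 overnight, -3.02 and -2.70 on the day 3 arrays, and -0.26 and -0.48 on the day 10 arrays.

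Probe 1org-142-s, by its ending the 5p strand, had similar means at the 3 times as deposited. It was at -1.89 overnight, at -2.05 and -0.80 at day 3, and at -0.81 and -1.91 at day 10. The arrays of day 3 and day 10 overlapped, and the day 10 mean of -1.36 was close to the day 3 mean of -1.43. Its rank was 75 overnight, with 18 and 26 for the day 3 arrays and 62 and 14 for the day 10 arrays. The 2 arrays of day 10 thus placed it differently. After centring it was at -0.14 overnight, -2.25 and -2.22 on the day 3 arrays, and -0.30 and -1.53 on the day 10 arrays.

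The miR-223 probe 2org-223 was at -2.01 overnight, at -1.36 and 0.88 at day 3, and at -1.62 and -1.27 at day 10. The 2 arrays of day 3 lay on either side of 0, and the day 10 arrays were both below it. After centring it was at -0.26 overnight, -1.56 and -0.54 on the day 3 arrays, and -1.11 and -0.89 on the day 10 arrays. It ranked 64 overnight, 26 and 59 on the arrays of day 3, and 14 and 27 on those of day 10. The ranks of days 3 and 10 overlapped.

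**Figure D2:**
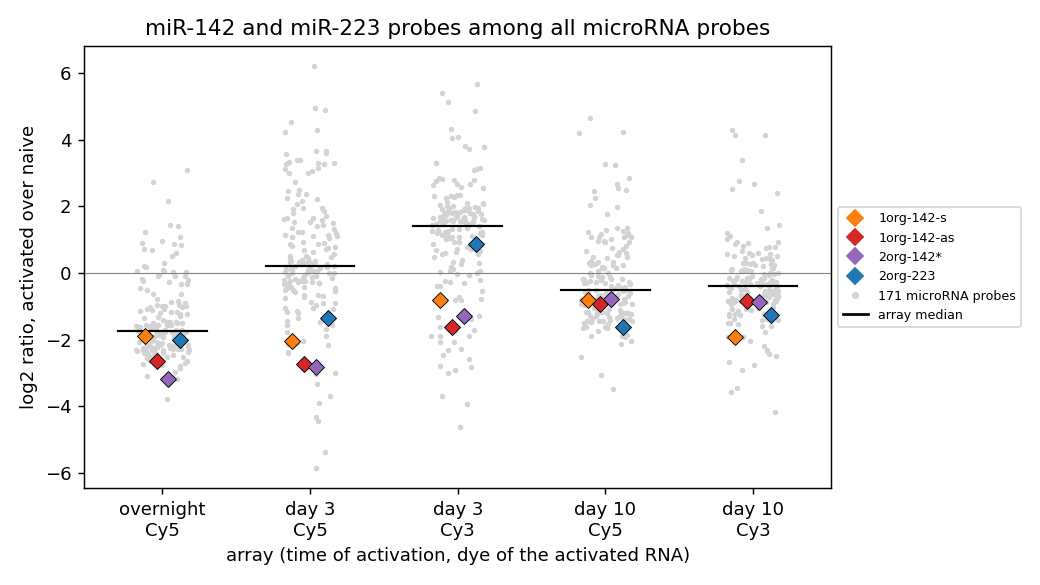
Log2 ratio of activated over naive (vertical axis) of all 171 microRNA probes (grey) and of the 4 probes (diamonds) on each of the 5 arrays (horizontal axis, with the dye of the activated RNA). Black bars are array medians, which run between -1.75 and 1.42, and the 1org-142-as and 2org-142* probes lie near the lower end overnight and at day 3 and nearer to the median at day 10.

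Within a time, a probe was counted as lower if the mean of its log2 ratios was at most -1, a 2-fold change, with the same sign on every array of that time. Overnight all 4 probes met this rule, but so did 73.1% of all microRNA probes, and after centring 2org-142* alone of the 4 met it, against 4.09% of all probes. At day 3 the 3 miR-142 probes met it and 2org-223 did not (12.9% of all probes), and after centring all 4 met it (19.9%). With the Cy5 array of day 3 left out, named by the dye of the activated RNA, 1org-142-s was at -0.80 and no longer met the rule as deposited. At day 10, 1org-142-s and 2org-223 met it and the other miR-142 probes did not (17%), and after centring none of the 4 did (4.09%). The centred day 10 means were -0.91 for 1org-142-s, -0.997 for 2org-223, -0.43 for 1org-142-as and -0.37 for 2org-142*. With the Cy3 array of day 10 left out, 1org-142-s was at -0.81 as deposited, short of the rule, and 2org-223 was at -1.62.

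Limma was also fitted to the 5 arrays with terms for the times and for the dye. Its p-values, adjusted by Benjamini-Hochberg over all 171 probes, cover the spread between arrays alone, and that spread may be technical. Limma's moderation gave every probe the same SE at a time as deposited and after centring, but not with the arrays brought to a common scale. Where the SE was the same, the spread was pooled over the 171 probes, taken as independent although they share the shifts of an array. Those p-values thus rest on the number of probes and are not a measure of array replication. As deposited, the 3 miR-142 probes passed at day 3, as by the size rule. There 1org-142-as was at -2.19 ± 0.45 (SE, n = 2 arrays, adjusted p = 1.05e-05), 2org-142* at -2.05 (adjusted p = 3.85e-05) and 1org-142-s at -1.43 (adjusted p = 0.00502), while 2org-223 was at -0.24 (adjusted p = 0.622). At day 10 the same fit called 1org-142-s (-1.36, adjusted p = 0.0212) and 2org-223 (-1.44, adjusted p = 0.0141) and not 1org-142-as (-0.88, adjusted p = 0.144) or 2org-142* (-0.82, adjusted p = 0.18). This fit called 12.9% of all probes lower at day 3 and 11.7% at day 10. After centring it called all 4 probes lower at day 3 (21.1% of all), with 2org-223 at an adjusted p of 0.0186, and none of them at day 10 (2.92% of all probes lower), where the adjusted p was 0.0774 for 1org-142-s and 0.0537 for 2org-223. The common scale gave every array the same spread about its median and left the medians, and so the shifts between arrays, in place. With the arrays on it, limma kept 1org-142-as (adjusted p = 0.0106) and 2org-142* (adjusted p = 0.0175) at day 3 and lost 1org-142-s (adjusted p = 0.101). At day 10 it lost 1org-142-s and 2org-223 (adjusted p = 0.067 for both). The share of all probes called on this scale is not given here for any time, so these calls have no rate beside them. Overnight was 1 array without a dye swap. The fit takes off the dye effect of the other times there and has 1 residual degree of freedom for each probe. Its overnight p-values thus assume that this array varies like those of days 3 and 10. It gave -2.34 for 1org-142-as, -2.81 for 2org-142*, -1.85 for 1org-142-s and -1.36 for 2org-223, with the 3 miR-142 probes called (limma adjusted p = 0.00929, 0.00384 and 0.0321 in the same order, against 0.1 for 2org-223). On a common scale 1org-142-s was lost overnight too (limma adjusted p = 0.0643). As deposited the fit called 38.6% of all probes lower overnight, and after centring 1.17%, with none of the 4 among them.

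Over the 3 times taken as 3 replicates, with the 2 arrays of a time averaged, limma against 0 called none of the 171 probes (0%), with 11 at an unadjusted p under 0.05. The means were -1.90 for 1org-142-as, -2.01 for 2org-142*, -1.56 for 1org-142-s and -1.23 for 2org-223, each with a pooled SE of 0.93 and adjusted p-values between 0.67 and 0.85. This SE was likewise pooled over the 171 probes, taken as independent. The test has naive RNA as the control on every array and leaves out the spread of the control. The average of the 3 times in the fit over 5 arrays was past the threshold for all 4 probes, with 21.6% of all probes called lower.

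Between day 10 and day 3, a probe was counted as higher where the day 10 mean was above the day 3 mean by at least 1 and the 2 pairs of arrays did not overlap. Probes 1org-142-as (day 10 minus day 3, 1.31) and 2org-142* (1.23) met this rule as deposited, against 12.9% of all probes. After centring, 1org-142-as (2.57), 2org-142* (2.49) and 1org-142-s (1.32) met it, against 28.1%. The miR-223 probe differed by -1.20 with overlapping pairs as deposited, and by 0.05 after centring. In the limma fit over 5 arrays none of the 4 differences was past the threshold as deposited (adjusted p between 0.071 and 0.942), and 8.77% of all probes were called higher. After centring, 1org-142-as (limma adjusted p = 3.48e-05) and 2org-142* (adjusted p = 5.74e-05) were called and 1org-142-s (adjusted p = 0.053) and 2org-223 (adjusted p = 0.96) were not, with 21.6% of all probes called higher. With the Cy5 array of day 3 left out, the change as deposited was 0.75 for 1org-142-as and 0.46 for 2org-142*. On the common scale, which keeps the array medians, it was 0.78 and 0.67 in the same order, all below the 1 of the rule. The changes of 1org-142-s and 2org-223 were below 0 in both settings. Without the Cy5 array of day 3 the dye effect does not cancel, and the day 3 array left had a median of 1.42. After centring, 1org-142-as was at -3.05 on that array and 2org-142* at -2.70, against day 10 means of -0.43 and -0.37.

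The miR-142 probes were then set against the miR-223 probe on the same array. Such a difference of 2 log2 ratios does not depend on how the array was centred. Probe 1org-142-as minus 2org-223 was -0.64 overnight, -1.38 and -2.51 on the day 3 arrays, and 0.69 and 0.44 on the day 10 arrays. Probe 2org-142* minus 2org-223 was -1.17 overnight, -1.46 and -2.16 on the day 3 arrays, and 0.85 and 0.41 on the day 10 arrays. Relative to miR-223, these 2 probes were thus lower on the overnight and both day 3 arrays and higher on both day 10 arrays. Probe 1org-142-s minus 2org-223 was 0.11 overnight, -0.69 and -1.68 on the day 3 arrays, and 0.81 and -0.64 on the day 10 arrays, with no common sign at day 10.

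Between day 10 and day 3 this difference changed (day 10 minus day 3) by 2.51 for 1org-142-as, by 2.43 for 2org-142* and by 1.27 for 1org-142-s, each without overlap of the 2 pairs of arrays. For 1org-142-s the gap between the pairs was narrow, with -0.64 at day 10 and -0.69 at day 3 as the nearest values. Of the other 170 microRNA probes set against 2org-223 in the same way, which includes these 3, 26.5% changed upward by at least 1 without overlap. Ranked from the largest upward change, 1org-142-as was at 17, 2org-142* at 20 and 1org-142-s at 39 of 170, and the median change was -0.02. At day 3 by itself, 12.9% of the 170 were at least 1 below 2org-223, all 3 miR-142 probes among them. Leaving out any 1 of the 4 arrays of days 3 and 10 gave changes between 1.95 and 3.08 for 1org-142-as, between 2.08 and 2.79 for 2org-142*, and between 0.54 and 1.99 for 1org-142-s. For 1org-142-s the change was 0.77 when the Cy3 array of day 3 was left out and 0.54 when the Cy5 array of day 10 was left out, named by the dye of the activated RNA.

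**Figure D3:**
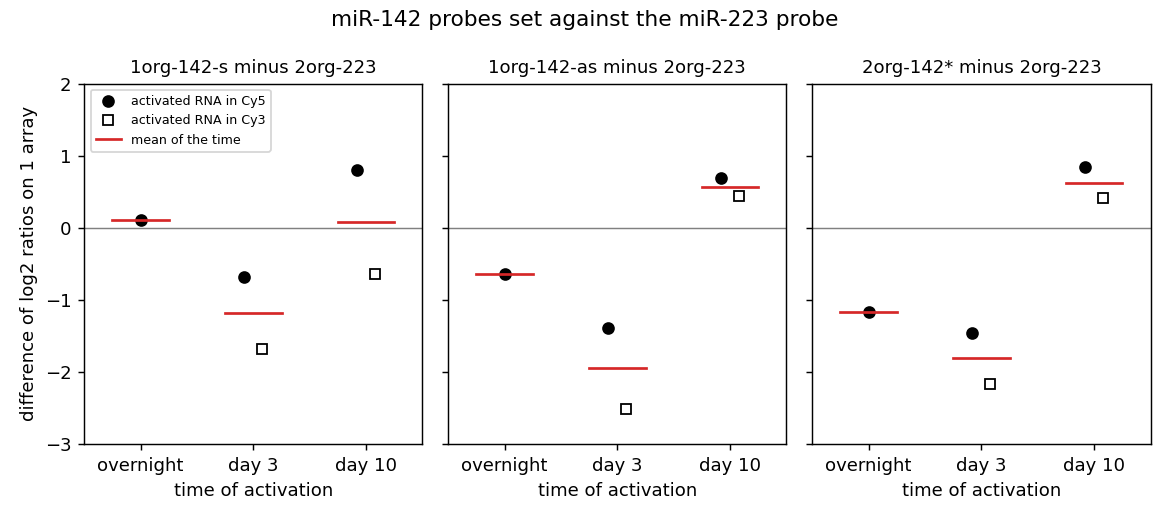
Difference of the log2 ratios of each miR-142 probe and 2org-223 on the same array (vertical axis) at each time (horizontal axis). Points are arrays by the dye of the activated RNA and red bars the mean of a time. For 1org-142-as and 2org-142* both day 3 arrays lie below 0 and both day 10 arrays above it.

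Among the miR-142 probes, 1org-142-as and 2org-142* were closest, and 1org-142-s was farther from both. The root mean square difference over the 5 arrays was 0.29 between 1org-142-as and 2org-142*, 0.77 between 1org-142-s and 1org-142-as, and 0.84 between 1org-142-s and 2org-142*. Of the 14535 pairs of microRNA probes, 77 were closer than the first of these, 11.8% were closer than the second and 14.7% closer than the third. The median pair differed by 1.74. The distance from 2org-223 was 0.94 for 1org-142-s, 1.36 for 1org-142-as and 1.34 for 2org-142*. Probe 1org-142-s minus 1org-142-as was 0.76 overnight, 0.70 and 0.83 on the day 3 arrays, and 0.12 and -1.08 on the day 10 arrays. Probe 1org-142-s was thus the higher of the 2 overnight and at day 3, while at day 10 the arrays had no common sign. Averaged over the 3 times, the 6 pairwise differences between the 4 probes ranged from -0.78 ± 1.26 (2org-142* minus 2org-223, SD, n = 3 times) to 0.45 ± 0.92 (1org-142-s minus 2org-142*). An exact 2-sided sign-flip permutation test over the 3 times gave p = 0.5 or p = 1 for each of the 6, and p = 0.75 or p = 1 after Benjamini-Hochberg adjustment. With 3 times this test cannot go below 0.25, so it could not have called any pair. Limma fitted to the 6 differences over the 5 arrays, with terms for the times and for the dye, was past the threshold for 5 of the 6 changes between day 10 and day 3, the exception being 1org-142-as minus 2org-142*. Its p-values were moderated and adjusted over these 6 pairs alone, of which 3 are independent, and are not used here. Other pairs of probes were not fitted, so the count of 5 has no rate beside it and no conclusion is drawn from it.

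The probes nearest to each member by this root mean square difference over the 5 arrays were named. The nearest to 1org-142-s were 1org-15b (0.63), 1org-30e (0.66) and 2org-181b (0.67), where the median probe was at 1.73. The nearest to 1org-142-as were 2org-142* (0.29), 1org-16 (0.57) and 1org-30c (0.60), and to 2org-142* they were 1org-142-as, 1org-16 (0.80) and 1org-15b (0.81), with medians of 2.09 and 2.07. Probe 1org-15b is annotated as miR-15b, and 1org-16, by its number miR-16, belongs to the same microRNA family, which is known for restraining the cell cycle. Probe 1org-16 was at -1.46 overnight, at -2.99 and -1.70 at day 3, and at -0.55 and -0.67 at day 10, and so, like 1org-142-as, had both day 10 values above both day 3 values. The nearest to 2org-223 were 1org-126 (0.51), 2org-17-3p (0.54) and 2org-100 (0.56), with a median of 1.40. Probe 1org-126, by its number miR-126 of endothelial cells and platelets, was at -2.33 overnight, at -0.70 and 1.19 at day 3, and at -1.15 and -0.62 at day 10. Like 2org-223 it had day 3 arrays of opposite sign as deposited. The medians of these 2 arrays also differed, at 0.20 and 1.42, and after centring 2org-223 was below 0 on both (-1.56 and -0.54). These distances are over 5 arrays that share naive RNA as a control.

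**Figure D4:**
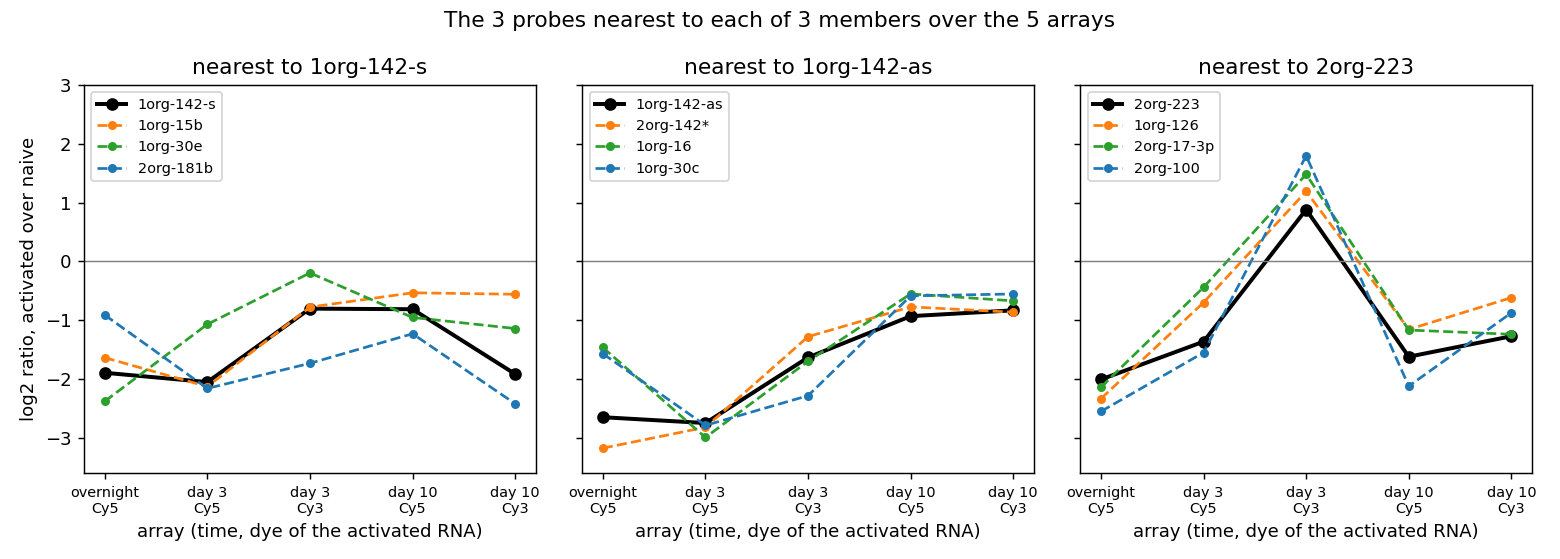
Log2 ratio of activated over naive (vertical axis) on the 5 arrays (horizontal axis) for 1org-142-s, 1org-142-as and 2org-223 (black) and the 3 probes nearest to each (coloured). The lines join arrays only to guide the eye. The probes nearest to 1org-142-as are above their day 3 values at day 10, and those nearest to 2org-223 have their highest value on the array of day 3 whose activated RNA was in Cy3. That array also had the highest median of the 5.

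Other microRNAs known from blood cells went both ways. Of 12 probes with the numbers of miR-155, miR-150, miR-181, miR-146, miR-144, miR-221, miR-222, miR-15 and miR-16, 8 were at least 2-fold lower overnight and 0 higher, where 73.1% and 4.09% of all microRNA probes were, and 0 and 3 after centring (4.09% and 21.6%). At day 3, 6 were lower and 4 higher, where 12.9% and 38% of all were, and 7 and 3 after centring (19.9% and 15.2%). At day 10, 4 were lower and 2 higher (17% and 9.94% of all), and 2 and 2 after centring (4.09% and 14.6%). The list median was -1.59 overnight, -1.10 at day 3 and -0.58 at day 10, beside -1.75, 0.83 and -0.56 over all microRNA probes. Probe 1org-150, by its number miR-150 of mature resting lymphocytes, was at -0.28 overnight, at -5.86 and -4.63 at day 3 and at -1.33 and -1.24 at day 10. It too was less far below 0 at day 10 than at day 3. Probe 1org-181, by its number the lymphocyte development microRNA miR-181, was at -1.55 overnight, at -5.37 and -3.69 at day 3 and at -3.48 and -3.57 at day 10. Probes 2org-181b and 2org-181c were at -0.91 and -2.45 overnight and had means of -1.94 and -0.74 at day 3 and of -1.82 and -0.52 at day 10. miR-155 (1org-155), which antigen receptor signals are known to induce, was at 0.05 overnight, at 4.89 and 4.87 at day 3 and at 0.47 and 0.22 at day 10. Probe 1org-146, by its number miR-146, a known brake on inflammatory signalling, was at -0.33 overnight, at 0.64 and 0.77 at day 3 and at -1.34 and -1.07 at day 10.

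Lists of microRNAs known from other cells had medians close to the array medians at days 3 and 10. After centring, the single erythroid probe, 1org-144 for miR-144, was at -0.49 overnight, 0.22 at day 3 and -0.21 at day 10, and the 2 miR-126 probes had medians of -0.15, -0.42 and -0.51 at the 3 times. The medians overnight, at day 3 and at day 10 were -0.03, 0.19 and -0.27 for 11 stromal and muscle probes, 0.07, -0.12 and -0.27 for 10 epithelial and liver probes, and -0.77, 0.10 and -0.20 for 7 neural probes. In these 3 lists after centring, 2, 3 and 0 probes were at least 2-fold higher overnight and 1, 0 and 0 lower (21.6% and 4.09% of all microRNA probes). At day 3, 1, 0 and 1 were higher and 0, 1 and 0 lower (15.2% and 19.9% of all), and at day 10 none was higher and 1, 0 and 0 lower (14.6% and 4.09% of all). As deposited, 1, 2 and 0 were higher and 9, 7 and 6 lower overnight (4.09% and 73.1% of all), 5, 1 and 2 higher and none lower at day 3 (38% and 12.9%), and none higher and 2, 3 and 3 lower at day 10 (9.94% and 17%). The 3 epithelial and liver probes higher overnight after centring were those of miR-200, whose signs were opposite on the 2 arrays of each dye pair. For 1org-200b the values were 3.67 and -2.31 at day 3 and 3.26 and -4.19 at day 10. The muscle probe 1org-206, also higher overnight, changed sign too (1.95 and -0.29 at day 3). Without a dye swap overnight, dye and activation cannot be told apart in these counts. The centred values of 2org-223 were -0.26, -1.05 and -0.997 at the 3 times. miR-223 is the sole myeloid marker among these probes, and the part of myeloid cells in either RNA was not tested.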

How the data were processed

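Total RNA of activated and naive mouse CD4-positive, CD25-negative T cells was compared on 5 two-channel microRNA arrays. The deposited values are log ratios of the channels, read as log2, with the base, scanner, background correction and normalization not given in the sources used here. Arrays with activated RNA in channel 1 were multiplied by -1. The 7 transfer RNA and small nuclear RNA probes were left out. The platform's annotation gives 1 gene for 61 probes and none for the 4 probes described, so numbers in probe IDs were read as microRNA numbers.

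Tests used limma 3.58.1 in R 4.3.3 (lmFit, eBayes, 2-sided, Benjamini-Hochberg over 171 probes, threshold 0.05). The code was also run on simulated data without shifts between arrays and with the same dye effect at all times. These arrays differ from that, so the run does not show how the tests perform on them. Within a time a size rule was used, as both arrays of a dye pair may hold the same extracts, with limma over 5 arrays (terms for time and dye) as the alternative. Other alternatives were array centring, a common scale (same spread, array medians kept), the overnight dye effect taken off, no moderation, and leaving out arrays. Leaving out an array of a dye pair leaves the dye effect of that time uncancelled. The 4 probes, the lists and the tests were chosen with earlier results of these data known. The probes named were the 4 members, the 3 nearest to each, and the first 6 of the blood cell list.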

Additional observations from a re-analysis of the deposited data

Results flagged for a closer look

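Among the 4 probes, their 6 pairwise differences and the first 6 probes of the blood cell list, differences between day 10 and day 3 were singled out where both arrays of one time lay on one side of 0 and both arrays of the other time on the opposite side. The differences between the times were not tested in this step. Probe 1org-142-as minus 2org-223 changed by 2.51 and 2org-142* minus 2org-223 by 2.43, with both day 10 arrays above 0 and both day 3 arrays below it. Probe 1org-142-s minus 2org-142* changed by -1.17, with -0.04 and -1.05 at day 10 and 0.77 and 0.48 at day 3. One of these day 10 arrays was near 0. Probe 1org-146 changed by -1.91 as deposited, with both day 10 arrays below 0 and both day 3 arrays above it. After centring its day 10 mean was -0.76 and its day 3 mean -0.11.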

How the results depend on the processing

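Centring changed the counts within a time. Overnight, the count of probes at least 2-fold lower was 1 after centring, against 4 as deposited. It was also 1 when the overnight dye effect was removed too, which was chosen after seeing the data. In that setting 2org-223 was at 0.052 overnight, above 0. At day 10 none (0) was lower after centring, against 2 as deposited, and leaving out 1 array of day 10 gave between 1 and 2. At day 3 the count was 3 as deposited, and leaving out either array gave 2 to 4. Between day 10 and day 3, 2 probes were higher as deposited and 3 after centring. The count was 0 on a common scale, which keeps the array medians, and 0 by limma over 5 arrays as deposited. When 1 array was left out it was between 0 and 2. Over the 3 times limma called 0 of 171 probes as deposited, between 0 and 5 when an array was left out, and the average of the times in the fit over 5 arrays, another model with terms for time and dye and 1 residual degree of freedom, called 60. The 3 changes against 2org-223 kept their direction on a common scale (1.01, 2.38 and 2.28 for 1org-142-s, 1org-142-as and 2org-142*) and without each array in turn (0.54 to 1.99, 1.95 to 3.08 and 2.08 to 2.79). The cause of these shifts was not tested. For counts of the 4 probes with an array left out or on a common scale, the share of all microRNA probes is not given here. Those counts thus have no rate beside them. Of the 3 probes nearest to 2org-223 and to 2org-142* over 5 arrays, 1 each was among the 3 nearest over the 3 times. Arrays of different times could not be paired by animal or extract, because replicate numbers only name the arrays of a time. Signal over background is unknown for every probe.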
